A study of Mus musculus with 16 samples.

Results

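Enteroendocrine cells are the hormone-secreting cells of the gut epithelium, and 8 of their genes are described here out of the 54532 genes of the count table. The genes were taken by symbol, namely Chga, Chgb, Gcg, Pyy, Insl5, Sct, Tph1 and Neurod1, and each symbol matched 1 row. RNA was sequenced from 16 libraries of orthotopic mouse colorectal tumours, in 8 groups of 2 libraries. All tumours were grown in C57BL/6 mice from the colon carcinoma line MC38, injected into the wall of the descending colon as MSI (microsatellite instability) or CIN (chromosomal instability) cells. The labels do not say how the MSI and CIN cells were derived. All mice received bone marrow derived dendritic cells in the abdominal cavity on days 1, 6 and 12, and tumours were taken on day 15. Those dendritic cells had been exposed for 30 minutes, with a lipid transfection reagent, to 2 µg of MSI or CIN DNA. The DNA was free cytosolic DNA or came in micronuclei, small bodies that hold chromosome fragments outside the nucleus. The 4 MSI tumour groups therefore received MSI free DNA, CIN free DNA, MSI micronuclei or CIN micronuclei, and so did the 4 CIN tumour groups. Mice given dendritic cells without DNA are not analysed here. The series' design text states that RNA of 3 biological replicates was mixed in equal parts for sequencing. It does not state whether every library is such a pool, and p-values therefore measure only library-to-library spread, which may be partly technical.

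Each enteroendocrine cell type in the colon is defined by the hormone it makes. L cells secrete products of proglucagon together with peptide YY and insulin-like peptide 5, and enterochromaffin cells make most of the serotonin of the body. Both store their product in dense granules packed with granins, and both arise from crypt progenitors through a cascade of basic helix-loop-helix transcription factors. Chga and Chgb encode the granins chromogranin A and B. Gcg encodes proglucagon, the precursor of GLP-1 and GLP-2, Pyy encodes peptide YY, Insl5 encodes a hormone of colonic L cells and Sct encodes secretin. Tph1 encodes the rate-limiting enzyme of serotonin synthesis outside the nervous system, and Neurod1 is a transcription factor of the endocrine lineage.

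The 8 genes lie on 6 mouse chromosomes and all are annotated as protein coding. In the deposited coordinates, which match GRCm38, Chga is at chr12:102554969-102565028 on the plus strand and Chgb at chr2:132781278-132795079 on the plus strand. Gcg is at chr2:62474530-62483650, Pyy at chr11:102106676-102107832, Insl5 at chr4:103017872-103026842 and Tph1 at chr7:46644641-46672537, all on the minus strand. Sct is at chr7:141278330-141279133 and Neurod1 at chr2:79452521-79456751, also on the minus strand. Neurod1 alone overlaps other annotated genes, Cerkl on its own strand and Gm26755 on the opposite one. No source used here says whether counting used the strand. Reads in the overlap may have been left out or given to the wrong gene, so Neurod1 counts may be too low or too high.

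The promoters of 4 of the genes were read from RefSeq (GRCm38.p6), for the 2 granins and for 2 L cell hormones. Each window runs from 250 bases before to 50 bases after the start annotated by RefSeq, 5′ to 3′ on the strand of the gene. The RefSeq start differs from the deposited gene start, and the whole Chgb window lies inside the deposited Chgb gene. Capitals mark 2 kinds of letters searched for on both strands, which do not overlap here: the E-box form CAGATG with its reverse complement CATCTG and the palindrome CAGCTG, bound by basic helix-loop-helix factors, and the cyclic AMP response element TGACGTCA with its variant TGACGTAA, read on the other strand as TTACGTCA.
Chga promoter, chr12:102554691-102554990 (plus strand): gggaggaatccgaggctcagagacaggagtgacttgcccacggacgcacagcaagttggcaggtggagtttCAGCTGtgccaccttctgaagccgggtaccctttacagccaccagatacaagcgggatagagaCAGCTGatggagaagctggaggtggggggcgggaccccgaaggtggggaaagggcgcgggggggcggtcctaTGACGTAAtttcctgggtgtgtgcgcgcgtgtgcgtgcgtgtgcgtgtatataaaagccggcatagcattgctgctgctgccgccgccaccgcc
Chgb promoter, chr2:132781392-132781691 (plus strand): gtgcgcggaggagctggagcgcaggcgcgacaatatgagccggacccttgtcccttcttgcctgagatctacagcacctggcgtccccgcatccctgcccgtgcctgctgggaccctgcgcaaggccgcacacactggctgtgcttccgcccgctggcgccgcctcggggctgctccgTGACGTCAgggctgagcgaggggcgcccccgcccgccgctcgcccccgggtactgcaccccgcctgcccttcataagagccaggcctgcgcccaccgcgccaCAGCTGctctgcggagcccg
Gcg promoter, chr2:62483604-62483903 (minus strand): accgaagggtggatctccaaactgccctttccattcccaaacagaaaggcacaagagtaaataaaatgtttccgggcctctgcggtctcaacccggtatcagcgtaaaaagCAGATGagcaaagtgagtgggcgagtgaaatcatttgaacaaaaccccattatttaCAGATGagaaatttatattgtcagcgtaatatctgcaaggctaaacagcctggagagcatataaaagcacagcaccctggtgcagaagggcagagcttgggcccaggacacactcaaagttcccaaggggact
Pyy promoter, chr11:102107727-102108026 (minus strand): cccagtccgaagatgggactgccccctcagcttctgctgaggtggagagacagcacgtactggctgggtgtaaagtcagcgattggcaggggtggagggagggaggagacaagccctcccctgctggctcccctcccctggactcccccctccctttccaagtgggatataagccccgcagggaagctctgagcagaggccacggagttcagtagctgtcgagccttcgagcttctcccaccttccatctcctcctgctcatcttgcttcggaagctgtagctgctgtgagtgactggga
The Chga window held the response element letters TGACGTAA 44 bases before the start, and the Chgb window held TGACGTCA 72 bases before it. The Gcg window held the E-box letters CAGATG 83 and 139 bases before the start, and the Pyy window held neither motif. All 8 genes had at least 1 window, 11 windows in all. E-box letters were present in 5 of the 11, those of Chga, Chgb, Gcg, Insl5 and Sct, against 30.6% of 32851 mouse promoter windows of the same length. Response element letters were present in the windows of Chga and Chgb, against 2.28% of all windows. A match of letters is a description and not a binding site.

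The libraries held 11561955 to 17937501 counts each. Levels are given as CPM, counts scaled to library size with TMM factors, within a gene, and as the deposited FPKM, which is per gene length, between genes. The 8 genes had 95 (Sct) to 7288 (Pyy) counts summed over all libraries, and all of them passed the filter on low counts. Chga, Chgb and Pyy had counts in all 16 libraries, Gcg, Insl5 and Tph1 in 15, Neurod1 in 14 and Sct in 13. Sct had 3 counts or fewer in 8 libraries, so its values are the least precise.

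1 library stood apart before any comparison. Replicate 1 of CIN tumours given MSI micronuclei held 11 counts of Pyy, 10 of Chgb and 3 of Chga, and no count of the other 5 genes. A count of 0 there allows a level of up to 0.266 CPM, which covers counting error only. All 8 genes were below 10% of their own median level in that library, as were 11.6% of the 18751 tested genes with a median above 0. The general colon epithelium list of 17 genes (among them Epcam, Krt8 and Cdh1) behaved alike, with 17 of 17 below 10%. Lists outside the epithelium were low there in part: 6 of 9 smooth muscle, 6 of 10 mast cell and 6 of 12 enteric neuron genes. By the same measure 0 of 8 tuft cell genes and 0 of 7 skeletal muscle genes with a median above 0 were low. The summed level of that list was 163 CPM in this library, against up to 6848 CPM in the other CIN tumour libraries and 652 to 14040 CPM in MSI tumours. Skeletal muscle transcripts, absent from colon mucosa, were also high in it and in 4 others: replicate 1 of MSI tumours given CIN micronuclei, replicate 2 of CIN tumours given MSI free DNA, replicate 2 of those given CIN free DNA, and replicate 2 of those given MSI micronuclei. In bulk tissue, fewer cells of a type and less RNA per cell cannot be told apart.

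Pyy was the most abundant of the 8 genes per length, with a median of 43.0 FPKM over the 16 libraries. Insl5 followed with a median of 19.7 FPKM, and Pyy was above it in 16 of 16 libraries. Next came Chgb at 5.79 FPKM, Chga at 5.55 FPKM and Gcg at 3.62 FPKM. The last 3 were Tph1 at 0.399 FPKM, Sct at 0.389 FPKM and Neurod1 at 0.220 FPKM. The L cell hormone genes Pyy and Insl5 therefore led the order, with Gcg after both granins. The 2 low genes besides secretin were the serotonin enzyme and the transcription factor. Neighbours that did not differ beyond their spread were Chgb and Chga, with a mean log2 ratio of 0.31 ± 0.57, Tph1 and Sct, with -0.11 ± 0.75 over the 13 libraries where both were above 0, and Sct and Neurod1, with 1.09 ± 1.36 (SD). Chga exceeded Gcg by 0.59 ± 0.58 on the log2 scale, about its spread. The other 3 steps were larger than their spread: 1.26 ± 0.37 for Pyy over Insl5, 1.38 ± 0.55 for Insl5 over Chgb and 3.17 ± 0.57 for Gcg over Tph1 (mean log2 ratio ± SD, 15 libraries each).

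Chromogranin A, the general marker of these cells, varied widely within groups. In MSI tumours, Chga was 14.9 and 37.0 CPM after MSI free DNA, 4.79 and 35.2 CPM after CIN free DNA, 16.1 and 34.3 CPM after MSI micronuclei, and 4.73 and 32.7 CPM after CIN micronuclei (replicates 1 and 2). In CIN tumours it was 25.9 and 7.17 CPM after MSI free DNA, 14.2 and 6.14 CPM after CIN free DNA, 0.266 and 8.93 CPM after MSI micronuclei, and 15.6 and 34.0 CPM after CIN micronuclei. The tumour types overlapped: 3 MSI tumour libraries were above every CIN tumour library and none was below all of them. Within the CIN tumours given MSI micronuclei, replicate 2 was 33.6 times replicate 1, with a 95% exact binomial interval of 11.2 to 166 for counting error.

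The second granin followed the same libraries. Chgb ran from 2.30 to 50.4 CPM in MSI tumours, with a median of 28.0 CPM, and from 0.885 to 43.2 CPM in CIN tumours, with a median of 15.2 CPM. Its highest value was in replicate 2 of MSI tumours given CIN micronuclei and its lowest in the CIN tumour library that stood apart.

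Among the L cell hormones, Pyy reached its highest level in a CIN tumour library. In MSI tumours, Pyy was 24.7 and 52.5 CPM after MSI free DNA, 9.58 and 49.7 CPM after CIN free DNA, 29.7 and 41.1 CPM after MSI micronuclei, and 2.30 and 52.1 CPM after CIN micronuclei. In CIN tumours it was 55.9 and 15.0 CPM after MSI free DNA, 25.5 and 12.2 CPM after CIN free DNA, 0.973 and 22.3 CPM after MSI micronuclei, and 37.0 and 63.9 CPM after CIN micronuclei. No MSI tumour library lay outside the range of the CIN tumour libraries.

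Proglucagon and insulin-like peptide 5 gave the same picture. Gcg ran from 0.996 to 12.1 CPM in MSI tumours, with a median of 7.44 CPM, and from 0 to 22.7 CPM in CIN tumours, with a median of 4.87 CPM. Insl5 ran from 1.31 to 22.0 CPM in MSI tumours, with a median of 17.4 CPM, and from 0 to 42.1 CPM in CIN tumours, with a median of 10.8 CPM. For both genes the highest library was replicate 2 of CIN tumours given CIN micronuclei, and no MSI tumour library exceeded it. Secretin was scarce: Sct ran from 0 to 1.34 CPM in MSI tumours and from 0 to 1.19 CPM in CIN tumours, which is 0 to 20 counts in a library.

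The serotonin enzyme and the transcription factor were low as well. Tph1 ran from 0.249 to 9.72 CPM in MSI tumours, with a median of 3.69 CPM, and from 0 to 5.29 CPM in CIN tumours, with a median of 2.16 CPM. Neurod1 ran from 0 to 2.17 CPM in MSI tumours, with a median of 0.818 CPM, and from 0 to 1.47 CPM in CIN tumours, with a median of 0.360 CPM. For each of them 2 MSI tumour libraries, both numbered replicate 2, were above every CIN tumour library.

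**Figure D1:**
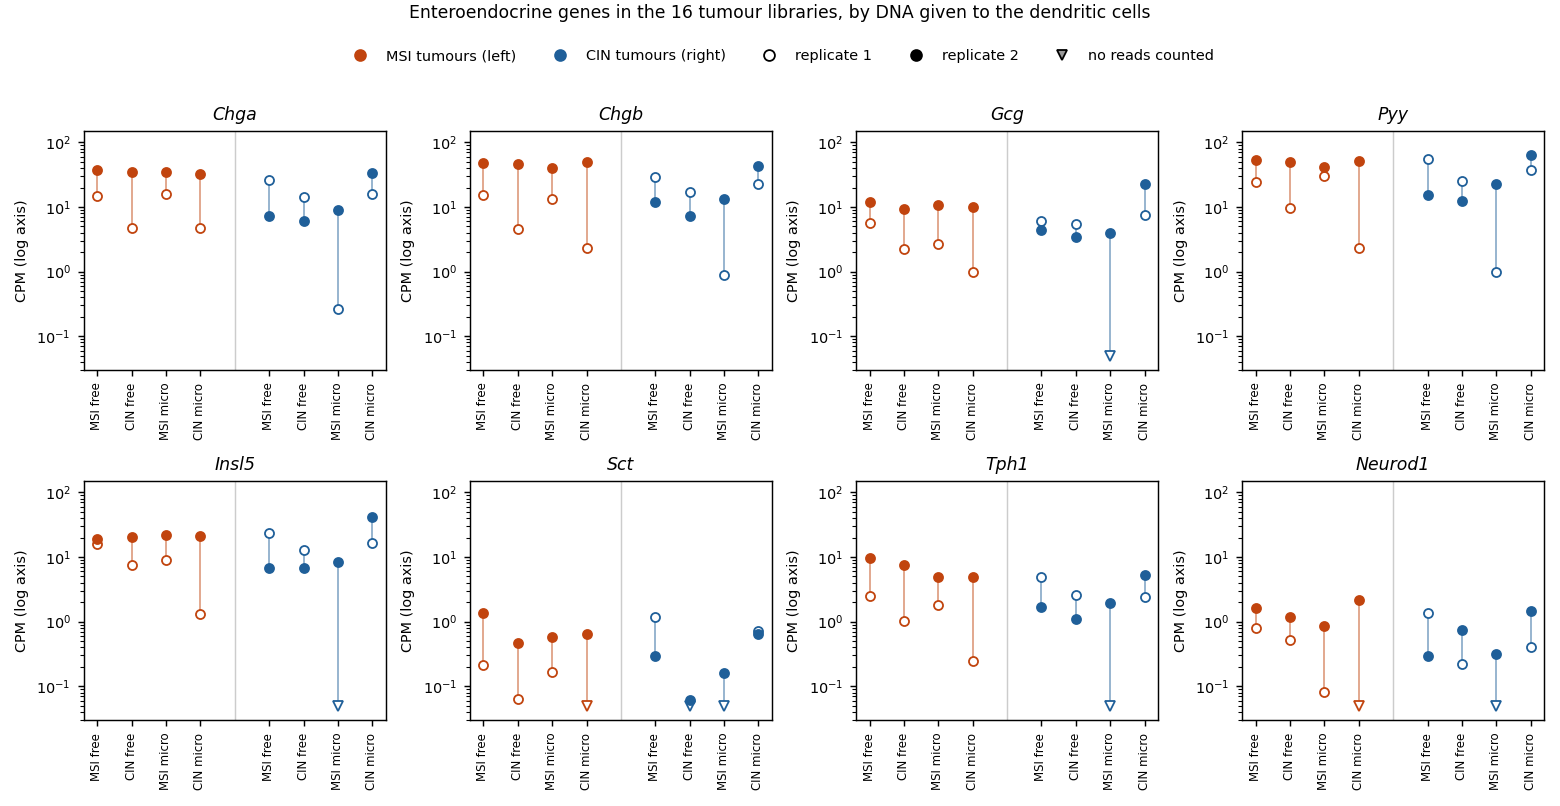
CPM (log axis) of the 8 genes in each library, MSI tumours at left and CIN tumours at right of each panel, with the 2 replicates of a DNA group joined by a line and triangles for libraries with no count. In MSI tumours the filled points (replicate 2) stand above the open ones (replicate 1) in every group and panel, while in CIN tumours replicate 1 given MSI micronuclei is the lowest or among those at 0.

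The replicate number divided the MSI tumour libraries. Replicate 2 was the higher library in 32 of 32 gene and group pairs of MSI tumours, and in 17 of 32 of CIN tumours. Pyy in MSI tumours given CIN micronuclei, at 52.1 CPM in replicate 2 and 2.30 CPM in replicate 1, gave a 22.6-fold difference. The smallest fold in MSI tumours was 1.22, for Insl5 after MSI free DNA. The pooled within-group SD of log2 CPM was 1.09 (Sct) to 1.94 (Insl5). log2 CPM adds a prior count of 2, which narrows the spread of a gene with as few counts as Sct. These 8 genes are not independent of each other, and the labels do not say what the replicate numbers stand for.

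In the comparison of MSI with CIN tumours over all DNA groups, none of the 8 genes passed the test, and all 8 were on the MSI side. The estimated log2 fold change was 0.92 ± 0.69 for Chga, 0.82 ± 0.75 for Chgb, 0.37 ± 0.71 for Gcg and 0.37 ± 0.71 for Pyy (± SE, edgeR quasi-likelihood test). It was 0.29 ± 0.74 for Insl5, 0.99 ± 0.84 for Sct, 0.84 ± 0.76 for Tph1 and 0.77 ± 0.84 for Neurod1. Adjusted p ran from 0.440 to 0.825 by the edgeR quasi-likelihood test. The background was 5.80% of 18777 genes called, 435 higher and 654 lower in MSI tumours, so 0 of 8 called is near what that share gives. The median of the 8 genes was 0.79, and that of all genes tested was 0.06. The intervals were wide: for Chga the 95% interval ran from a 0.653-fold to a 5.47-fold level in MSI relative to CIN tumours, and for Pyy from 0.430-fold to 3.88-fold. Leaving out the CIN tumour library that stood apart, the median was 0.64 and the adjusted p by edgeR ran from 0.519 to 0.932. Leaving out replicate 2 of MSI tumours given CIN micronuclei turned the median to -0.28, and leaving out replicate 2 of CIN tumours given MSI micronuclei took it to 1.90. In an additive model without the 5 muscle-rich libraries, the median was -0.08. Other lists lay on the MSI side too in the fit of all 16 libraries: 17 of 17 general colon epithelium genes, with a median of 1.02. So did 12 of 12 absorptive colonocyte genes (0.92), 9 of 9 smooth muscle genes (1.11) and 8 of 10 goblet cell genes (0.27). All 9 skeletal muscle genes tested lay on the CIN side (-1.96).

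The DNA given to the dendritic cells gave no call for any of the 8 genes. None passed for MSI against CIN DNA, for free DNA against micronuclei, for either interaction with tumour type, or for either contrast within a tumour type. The background was 0% of 18777 genes called in each of these 8 comparisons by the edgeR quasi-likelihood test, with 126 to 315 genes at an unadjusted p under 0.05 and none of the 8 among them. DESeq2 called 1 gene of the whole table in each of 2 of them, tumour by DNA source and DNA source in CIN tumours, and limma called 2 in 1, DNA form in MSI tumours, none of these among the 8 genes. Gcg had the largest estimate, with a log2 fold change of -1.36 ± 1.02 for MSI over CIN DNA in CIN tumours (95% interval -3.63 to 0.91). Without the library that stood apart, it was -0.87 ± 0.90, and without its partner, replicate 2 of CIN tumours given MSI micronuclei, -5.28 ± 1.59 (adjusted p = 0.970, edgeR quasi-likelihood test). The 8 genes had a median of -0.79 in that comparison, which was -0.34 without the library that stood apart and -2.96 without its partner. Chga had 25.9, 7.17, 0.266 and 8.93 CPM in CIN tumours given MSI DNA, against 14.2, 6.14, 15.6 and 34.0 CPM in CIN tumours given CIN DNA, and these overlap.

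The levels of all 8 genes correlated with the amount of colon epithelium RNA over the 16 libraries. The general colon epithelium score was the mean log2 CPM of its 17 genes, none of them among the 8. Across the 16 libraries the Pearson correlation of log2 CPM with that score was 0.966 for Chga, 0.985 for Chgb, 0.939 for Gcg, 0.972 for Pyy and 0.931 for Insl5. It was 0.976 for Tph1, 0.790 for Sct and 0.806 for Neurod1, the 2 genes with the fewest counts. Spearman's rho was 0.802 to 0.968. The permutation p, with 100000 resamples and both tails, was at most 1e-04 for r and at most 0.00033 for rho, after adjustment over the 8 genes. Without the 2 libraries farthest from the median score, the lowest of each tumour type, r was 0.631 for Neurod1 to 0.972 for Chgb, with adjusted permutation p of at most 0.0161. Within tumour types r was 0.794 to 0.992 in MSI tumours and 0.682 to 0.992 in CIN tumours (n = 8 each). In MSI tumours the score also went with the replicate number, at 7.97 to 8.71 in the 4 libraries numbered 2 and 4.27 to 7.07 in the 4 numbered 1. As deviations from the mean of each replicate number, a comparison added after seeing the data, r was 0.425 (Neurod1) to 0.974 (Chgb) in MSI tumours, and none of the 8 genes passed when libraries were exchanged only within replicate numbers (adjusted p 0.0556 to 0.399, exact permutation test). In CIN tumours r was 0.708 (Sct) to 0.995 (Pyy) in the same comparison, and all 8 passed (adjusted p 0.00463 to 0.0486, exact permutation test). Lists outside the epithelium differed along the score too. From the lowest score (2.17) to the highest (8.71), the mean log2 CPM of the smooth muscle list went from 2.30 to 8.15. That of the enteric neuron list went from -0.68 to 2.59, and that of the skeletal muscle list from 3.91 to -0.76. The share of all genes that correlate with the score was not computed, so the relation is not shown to be particular to the 8 genes. The points share depth and dissection, and the part of tissue content in the tumour comparison was not tested beyond the fits given here.

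**Figure D2:**
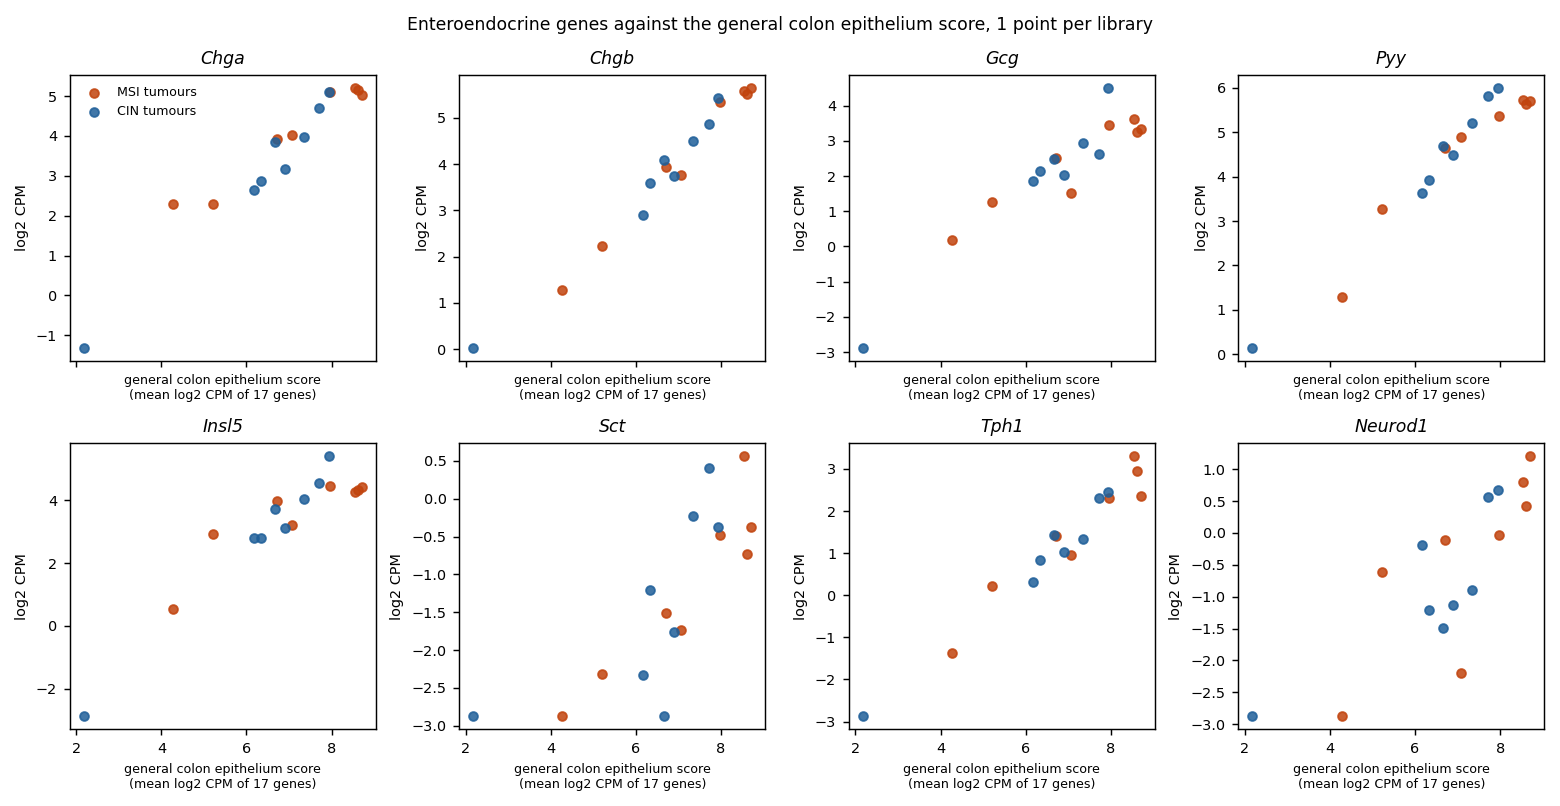
log2 CPM of each of the 8 genes against the general colon epithelium score (mean log2 CPM of 17 genes), 1 point per library, MSI and CIN tumours in different colours. Points of both tumour types lie along one rising band, closest for Chgb (r = 0.985) and widest for Sct (r = 0.790) and Neurod1 (r = 0.806), with replicate 1 of CIN tumours given MSI micronuclei at the lower left.

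With the epithelium score as a covariate, the tumour estimates of all 8 genes moved towards 0, and 6 changed sign. Chga was then 0.33 on the log2 scale and Pyy -0.33 ± 0.16 (adjusted p = 0.206, edgeR quasi-likelihood test). The median of the 8 genes was -0.11. Pyy passed the test in 2 of the fits that hold the score: -0.40 ± 0.12 (adjusted p = 0.0256, edgeR) with replicate terms within tumour types added, and -0.58 ± 0.10 (adjusted p = 0.00137, edgeR) in an additive model without the 5 muscle-rich libraries. The second of these was chosen after seeing the data. In the first, 4193 of the 18777 genes tested were called, so 1 of 8 genes is no more than that share. The number of genes called in the second is given in the last section. In the fit without the score Pyy was 0.37 ± 0.71, and the other 7 genes passed in no fit.

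**Figure D3:**
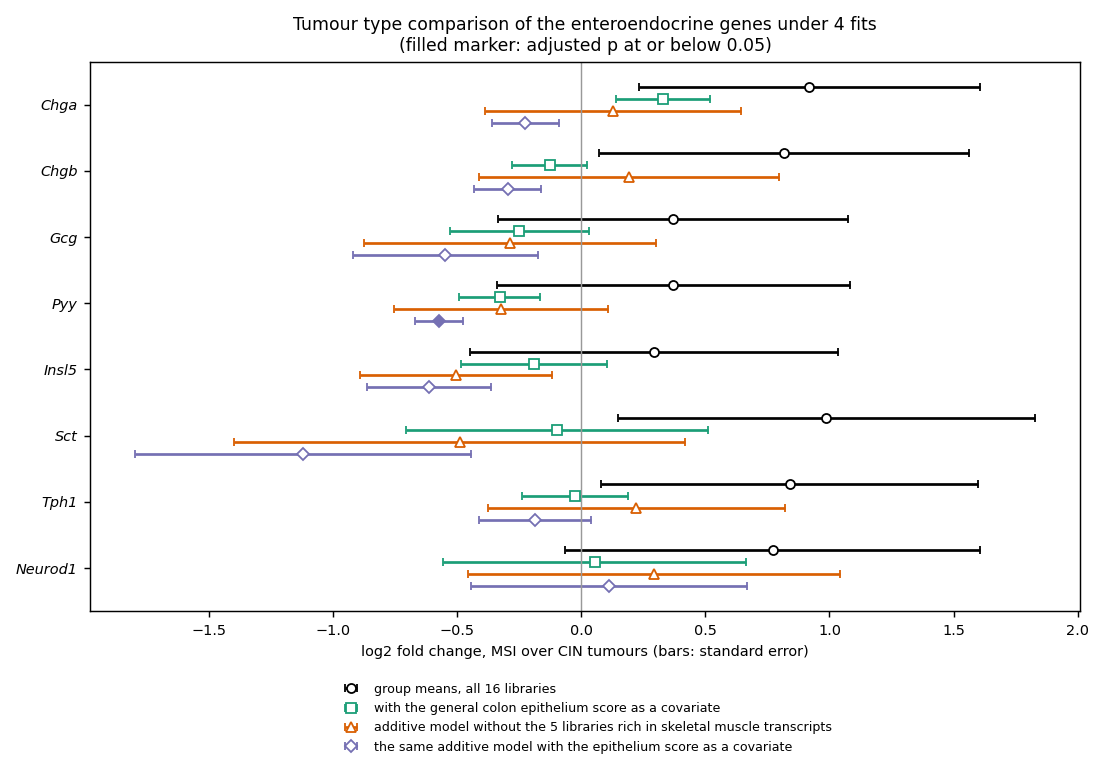
log2 fold change of MSI over CIN tumours (bars: standard error) for each of the 8 genes under 4 fits, filled where the adjusted p was at or below 0.05. The estimates from group means lie between 0.29 and 0.99 with long bars, and those with the colon epithelium score on all 16 libraries lie nearer to 0 with shorter bars. In the additive model without the muscle-rich libraries and with the score, Sct (-1.12), Pyy (-0.58), Insl5 (-0.62) and Gcg (-0.55) lie farther from 0 than in the estimates from group means, and Pyy there is the one filled marker.

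Proportions between the genes were compared as well. The FPKM ratio within a library was compared between tumour types for the 15 pairs of the 6 genes with the most counts, a comparison added after seeing the data. Chga relative to Pyy was the 1 pair of 15 that passed. Its log2 ratio averaged -2.56 ± 0.64 in MSI tumours and -3.30 ± 0.33 in CIN tumours (SD, n = 8 each), a difference of 0.73 or 1.66-fold (exact permutation test, two-sided, p = 0.00109, adjusted over the 15 pairs p = 0.0163). The ratio itself ran from 0.114 to 0.470 in MSI tumours and from 0.0624 to 0.127 in CIN tumours, which overlap. Its highest value was in replicate 1 of MSI tumours given CIN micronuclei (76 counts of Chga, 37 of Pyy) and its lowest in the CIN tumour library that stood apart (3 counts of Chga, 11 of Pyy). Without that CIN tumour library the difference was 0.63 (exact permutation test, adjusted p = 0.0513), and without the 5 muscle-rich libraries 0.38 (adjusted p = 0.536, exact permutation test, 7 against 4 libraries). When libraries were exchanged only within a DNA group, the adjusted p was 0.0694 by the exact permutation test.

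**Figure D4:**
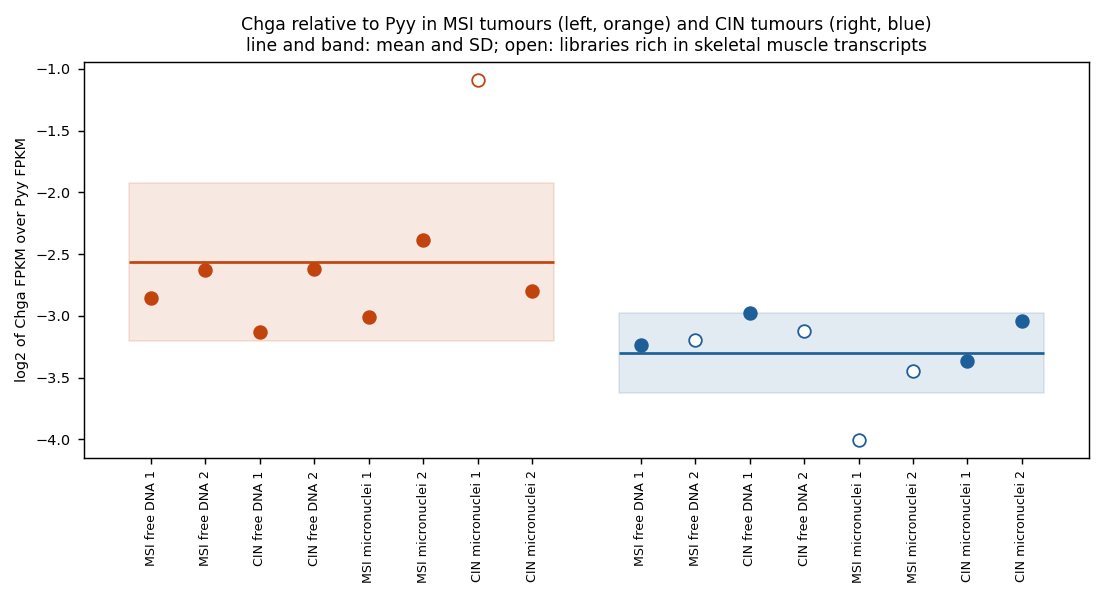
log2 of Chga FPKM over Pyy FPKM in each library, MSI tumours at left and CIN tumours at right, with the mean (line) and SD (band) of each tumour type and open circles for the 5 muscle-rich libraries. The mean is -2.56 in MSI tumours and -3.30 in CIN tumours, and the 2 libraries farthest apart, replicate 1 of MSI tumours given CIN micronuclei and replicate 1 of CIN tumours given MSI micronuclei, are both open circles.

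Other hormone genes of these cells gave no call in the tumour comparison. Of 18 further hormones and peptides, 10 were tested and none passed, against 5.80% of all genes. Apln, the apelin peptide, was the highest of them per length, at a mean of 7.95 FPKM, and gave a log2 fold change of 0.46 ± 0.24 in MSI over CIN tumours. Vip, a neuropeptide made mainly by enteric neurons in mouse gut, followed at 4.97 FPKM with 0.37 ± 0.64. The gastrin gene Gast had no count in any library.

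Of 22 endocrine transcription factors listed, 17 were tested and 1 passed in the tumour comparison, near the 5.80% of all genes called, with a median of 0.62. Sox4, a progenitor factor also expressed in many tumours, fell in MSI relative to CIN tumours by 1.14 ± 0.28 on the log2 scale (adjusted p = 0.0390, edgeR quasi-likelihood test), at 22.7 ± 7.7 CPM in MSI tumours and 51.6 ± 21.6 CPM in CIN tumours (SD, n = 8). That call was lost in 12 of 16 fits that left out 1 library, and without the 5 muscle-rich libraries the estimate was -0.69 ± 0.35 (adjusted p = 0.533, edgeR). Foxa1 and Hopx were the most abundant per length, at means of 11.2 and 10.9 FPKM, with log2 fold changes of 0.59 ± 0.50 and 0.49 ± 0.21. Neurog3, which starts the endocrine program, had 41 counts over all libraries and was named for that role after its value was seen. In the CIN tumour library that stood apart, 8 of the 17 were below 10% of their median.

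Of 28 granule and prohormone processing genes listed, 27 were tested, none passed as higher and 2 as lower, with a median of 0.66. That count too is near the 5.80% of all genes called. Cpe, the carboxypeptidase that trims prohormones, fell in MSI relative to CIN tumours by 0.56 ± 0.10 on the log2 scale (adjusted p = 0.0114, edgeR quasi-likelihood test), at 156 ± 19 CPM in MSI tumours and 231 ± 40 CPM in CIN tumours. Ptprn, a protein of dense-core vesicle membranes, fell by 1.05 ± 0.21 (adjusted p = 0.0161, edgeR), at 41.6 ± 13.0 CPM in MSI tumours and 86.4 ± 13.2 CPM in CIN tumours. The call of Cpe was kept in 16 of 16 fits that left out 1 library, and that of Ptprn was lost in 3 (highest adjusted p = 0.0587, edgeR). Without the 5 muscle-rich libraries both calls were lost, with -0.43 ± 0.15 for Cpe (adjusted p = 0.285) and -1.07 ± 0.27 for Ptprn (adjusted p = 0.128, edgeR). With the epithelium score added to that fit, chosen after seeing the data, both passed. The number of all genes called fell and rose in the same 2 fits, as given in the last section. In the library that nearly lacked the 8 genes, Cpe was at its highest of the 16 libraries, 305 CPM, and Ptprn was at 98.0 CPM. Pam, the peptide amidating enzyme, was at 21.2 FPKM with -0.31 ± 0.09 (adjusted p = 0.0597, edgeR).

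Of 15 serotonin handling genes listed, 13 were tested and 1 passed, again near the 5.80% of all genes called. Qdpr, which regenerates the cofactor of tryptophan hydroxylase, rose in MSI over CIN tumours by 0.39 ± 0.09 on the log2 scale (adjusted p = 0.0288, edgeR quasi-likelihood test), at 56.1 ± 5.5 CPM in MSI tumours and 42.9 ± 5.1 CPM in CIN tumours (SD, n = 8). That call was lost in 11 of 16 fits without 1 library, and without the 5 muscle-rich libraries the estimate was 0.26 ± 0.12 (adjusted p = 0.499, edgeR). Maoa, which degrades serotonin, was the most abundant, at a mean of 40.4 FPKM, with 0.78 ± 0.42. Of 18 nutrient and microbial receptors, 16 were tested, and of 20 receptors for the hormones, 11 were tested, and none passed. Il13ra1 and the glucose transporter Slc5a1 led the first list at 16.9 and 12.6 FPKM, with 0.18 ± 0.40 and 1.21 ± 0.83. The serotonin receptor Htr4 and the receptor Npy1r, which binds peptide YY, led the second at 1.56 and 1.35 FPKM, with 0.80 ± 0.79 and 1.34 ± 0.83.

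Markers of other cells that can express these genes were examined too. Mouse mast cells express Tph1, and 6 of 10 tested mast cell genes passed as higher in MSI tumours, none as lower, with a median log2 fold change of 2.88. The background was 5.80% of 18777 genes called, 435 of them higher in MSI tumours. Cpa3, a mast cell protease, rose by 4.39 ± 0.70 (adjusted p = 0.00562, edgeR quasi-likelihood test), at 2.96 ± 1.69 CPM in MSI tumours and 0.173 ± 0.242 CPM in CIN tumours, and the other 5 rose by 1.83 to 4.54. Without the 5 muscle-rich libraries, Cpa3 was 2.96 ± 0.74 (adjusted p = 0.128, edgeR) and none of the 6 passed, with estimates of 1.55 (Cma1) to 3.43 (Tpsb2). With the epithelium score added to that fit, Cpa3 was 2.71 and 5 of the 6 passed, all but Tpsab1. Calls over all genes also fell without those libraries and rose with the score (numbers in the last section). Leaving out 1 library, Cma1 lost the call in 3 of 16 fits and the other 5 in none. The summed level of the 11 mast cell genes was 25.7 to 87.0 CPM in MSI tumours and 4.78 to 47.0 CPM in CIN tumours. The part of mast cells in the Tph1 level was not tested.

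Enteric neurons also store peptides in granin-containing vesicles, and 1 of 12 tested neuron markers passed as lower in MSI tumours. That was Tubb3, a tubulin, which fell by 1.35 ± 0.19 (adjusted p = 0.00307, edgeR). The summed level of the 13 neuron genes was 206 to 348 CPM in MSI tumours and 453 to 683 CPM in CIN tumours, without overlap, and most of it was Tubb3. The other 12 neuron genes summed to 13.0 to 85.4 CPM in MSI tumours and 4.87 to 50.5 CPM in CIN tumours, which overlap, and 10 of the 12 tested markers had positive estimates, with a median of 1.05. The sum of the 6 enteric glia genes was 21.2 to 262 CPM in MSI tumours and 14.1 to 134 CPM in CIN tumours. In pancreas, endocrine cells of the islets also make these granins, and both insulin genes, Ins1 and Ins2, were at 0 counts in all 16 libraries. Of other epithelial lists, none of 12 absorptive colonocyte and 10 goblet cell genes passed, 1 of 8 tuft cell genes was lower (Dclk1, -1.22 ± 0.23) and 1 of 7 crypt genes was higher (Rgmb, 0.89 ± 0.14). For these lists and for the neuron list, the share of all genes called was 5.80%. Without the 5 muscle-rich libraries none of these 3 calls was kept: Tubb3 was -1.32 (adjusted p = 0.0669), Dclk1 -1.06 (adjusted p = 0.178) and Rgmb 0.65 (adjusted p = 0.116, edgeR). With the epithelium score added to that fit, chosen after seeing the data, all 3 passed. Calls over the whole table fell and rose likewise in these fits (numbers in the last section). Leaving out 1 library, Dclk1 lost the call in 2 of 16 fits and the other two in none. The part of these cells in the levels of the 8 genes was not tested.

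By the correlation of log2 CPM over the 16 libraries, among 15357 candidate genes (mean log2 CPM of 0 or more), the 5 genes most like the mean profile of the 8 were Nxpe2 (r = 0.992), Fxyd3 (0.989), Tspan13 (0.988), Rab25 (0.987) and 2210039B01Rik (0.987). The most alike gene to each was Slc9a2 for Chga, Serinc2 for Chgb, Cbs for Gcg, Pglyrp1 for Pyy, Igkc for Insl5, Zfand1 for Sct, Gm5485 for Tph1 and Rmdn1 for Neurod1, at r of 0.930 to 0.992. The points share the same libraries and the same range of epithelium RNA.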

How the data were processed

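RNA from 16 tumour libraries was sequenced after poly-A selection, per the labels' protocols. Per the submitters' processing notes, reads went through fastp, HISAT2 (version 2.0.5) and featureCounts (version 1.5.0-p3) with GRCm39 as the build. The deposited coordinates were those of GRCm38 instead: of 54495 identifiers also found in GENCODE M21, 53585 had the same coordinates. Whether counting used the strand is not stated in the sources used here. The authors deposited counts per gene, not normalized, and FPKM values, which equalled the count over gene length and over a single total for the library (relative tolerance 1e-06, total 0.899 to 1.08 times the sum of the counts). In each of these, 4 columns matched no sample and were not used.

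Counts were analysed with edgeR 4.0.16 in R 4.3.3: TMM scaling, filterByExpr by group (18777 genes), a mean for each group, quasi-likelihood fits with robust estimation, and p-values adjusted by Benjamini-Hochberg at 0.05 over all genes. Totals ran from 11561955 to 17937501 counts, and the biological coefficient of variation shared by all genes was 0.43, so library-to-library spread limited precision more than counting did. The fit was tested on simulated data first. Alternatives were DESeq2 1.42.0, its size factors in edgeR, no filter, replicate blocks, an epithelium covariate, an additive model, limma 3.58.1 on log2(FPKM + 0.1), and leaving out each library. Removal of libraries whose mean skeletal muscle level exceeded 5 CPM was added after seeing the data.

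The 8 genes and all gene lists were chosen with earlier results of these data known. Besides the 8, genes were named by rule: of each companion list up to 4 called genes and the 2 with the highest mean FPKM, and the genes most alike in profile. The 2 libraries of each group were kept as 2 samples, since their counts differed beyond counting error (chi-square over genes of 21.4 to 238 per degree of freedom), which does not show that they came from different animals. Their log2 CPM correlated at 0.873 to 0.976. Same-numbered libraries deviated together in MSI tumours, where 6 of 6 correlations of replicate differences were over 0.1 (0.396 to 0.796), but not in CIN tumours (2 of 6). Promoter sequences are from RefSeq (GRCm38.p6).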

Additional observations from a re-analysis of the deposited data

Results flagged for a closer look

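Of 20 groups of 8 values examined (the 8 genes, the Chga to Pyy ratio and the epithelium score in each tumour type), 10 had a library far from the others by the gap between it and its nearest neighbour, as a share of the whole range. Chance flags about 1 in 20 groups, and these groups share their libraries. In 8 of the 10 it was replicate 1 of CIN tumours given MSI micronuclei. The gap was 0.619 of the range for Chga, 0.531 for Chgb, 0.640 for Gcg, 0.594 for Pyy, 0.685 for Insl5 and 0.602 for Tph1 on the log2 CPM scale. For the general colon epithelium score in the same library it was 0.694, and for the Chga to Pyy log2 ratio, resting on 3 and 11 counts, it was 0.540. Gcg, Insl5 and Tph1 had no count in that library, so their gaps depend on the prior count of 2 added before taking log2.

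In the other 2 it was replicate 1 of MSI tumours given CIN micronuclei, the lowest MSI tumour library for Insl5, with a gap of 0.608 of the range, and the highest for the Chga to Pyy log2 ratio, with a gap of 0.637. The epithelium score was 4.27 in that library and 2.17 in the CIN tumour one, the 2 lowest of the 16.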

How the results depend on the processing

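Over 225 alternative fits and comparisons, 223 called none of the 8 genes and 2 called 1, Pyy, both in the tumour comparison with the epithelium score as a covariate. The number of genes called in the tumour comparison, 1089, was 2157 with DESeq2, 1778 with a replicate block, 3428 with a replicate block within each tumour type, 2558 with the epithelium score, 4193 with that score and the block, 1950 in an additive model, 135 in that model without the 5 muscle-rich libraries, 2029 when the score was added to it, and 477 (without CIN tumour, MSI free DNA replicate 2) to 1758 when 1 library was left out. The 2 fits that called Pyy were those with 4193 and 2029 genes called, so Pyy was 1 among many genes called there. The replicate block alone changed no call of the 8 genes. DESeq2 called 1 gene for tumour by source and 1 for source in CIN tumours, and limma 2 for form in MSI tumours.

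Tumour estimates (log2) changed sign as follows. With the epithelium score: Chgb -0.13, Gcg -0.25, Pyy -0.33, Insl5 -0.19, Sct -0.10 and Tph1 -0.027. With the replicate block and the score: -0.11, -0.19, -0.40, -0.25, -0.090 and -0.039 for the same genes. Without the muscle-rich libraries: Gcg -0.29, Pyy -0.32, Insl5 -0.50 and Sct -0.49. With the score as well: Chga -0.23, Chgb -0.30, Gcg -0.55, Pyy -0.58, Insl5 -0.62, Sct -1.12 and Tph1 -0.19. With 1 library left out the ranges were -0.062 to 1.57 for Chgb, -0.24 to 2.33 for Gcg, -0.52 to 1.27 for Pyy, -0.48 to 2.53 for Insl5, -0.32 to 1.84 for Sct and -0.97 to 1.85 for Neurod1, and the lone library of that group is assumed to vary like the others. The Chga to Pyy difference was 0.73 with adjusted p = 0.0694 within DNA groups (exact permutation test), 0.38 without the muscle-rich libraries, and 0.52 to 0.82 with 1 library left out. The correlation with the epithelium score in MSI tumours within replicate numbers was 0.922 for Chga, 0.974 for Chgb, 0.776 for Gcg, 0.964 for Pyy, 0.819 for Insl5, 0.709 for Sct, 0.874 for Tph1 and 0.425 for Neurod1, none past the threshold (exact permutation test). The 13 called genes of the other lists described lost the call without the muscle-rich libraries, and kept their direction in every alternative. With the epithelium score added to that fit, Sox4, Qdpr and Tpsab1 still lacked the call and the others passed. The cause of these changes was not tested. Sct and Neurod1 had the fewest counts (95 and 180 over all libraries), and counting error was not separated from library spread for them. The spread between libraries limits the other 6 genes.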
